A study of Mus musculus with 46 samples.

Results

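The genes described here encode the extracellular matrix, the integrin receptors that hold cells to it, and the enzymes that cut or cross-link it. They were chosen by symbol from the protein-coding genes of both expression tables: symbols of collagen chains (Col), laminin chains (Lam), integrin chains (Itga, Itgb), nidogens (Nid1, Nid2), perlecan (Hspg2), agrin (Agrn), matrix metalloproteinases (Mmp), their tissue inhibitors (Timp), Adamts and Adamts-like proteins, and lysyl oxidases (Lox). The rule gave 88 genes of the 14888 in either table. Of these, 79 were among the 14360 genes of the table for the tumour lines and 78 among the 14056 genes of the table for the Max addback experiment. There were 69 in both tables, 10 in the first only and 9 in the second only; a gene missing from a table was not analysed there. The 88 comprised 6 fibrillar collagen chains, 9 network and basement membrane collagen chains, 8 other collagens, 9 laminin chains, 4 nidogen, perlecan and agrin genes, 10 integrin alpha and 6 integrin beta chains, 10 matrix metalloproteinases, 4 inhibitors, 15 Adamts and Adamts-like genes and 2 lysyl oxidases. The remaining 5 matched by name only. Col4a3bp encodes a ceramide transfer protein, Itgb1bp1, Itgb1bp2 and Itgb3bp encode proteins named for binding integrin tails, and Itgbl1 encodes a protein with integrin-like repeats.

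As background, a basement membrane is a sheet built on a laminin polymer and a type IV collagen network, which nidogens, perlecan and agrin bind and join. Integrins are pairs of an alpha and a beta chain that grip this sheet or fibrillar collagen from the cell surface, while metalloproteinases cut the matrix, inhibitors of the Timp family restrain them, and lysyl oxidases cross-link collagen. In the thyroid, the neuroendocrine C cells lie inside the basement membrane of the follicles, so these genes describe the contact between such cells and their surroundings.

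The cells came from thyroid tumours of mice with conditional mutations switched on by a tamoxifen-inducible Ascl-Cre, which acts in neuroendocrine cells. The RPM lines (4) carry mutations of Rb, p53 and Max, and the RP lines (4) carry those of Rb and p53 only, so all the cells share the Rb and p53 mutations; they were grown in DMEM with serum. In a separate experiment, RPM cells, by their library names of the line of RPM replicate 2, were transduced with a vector expressing Max (Max addback, 3 libraries) or with an empty vector (3 libraries). MAX is the DNA-binding partner of the MYC proteins and of their MXD, MNT and MGA antagonists, and the series asks what its loss does to transcription; the labels give no age for the animals, and the 32 tumour libraries were not analysed here.

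Libraries held 6738614 to 8498396 reads over the listed genes, so that 3 reads were worth 0.353 to 0.458 CPM (the authors' unit, reads scaled to library size). Max read 80.9, 103, 68.9 and 100.5 CPM in RPM replicates 1 to 4, against 65.2, 44.7, 50.8 and 57.5 CPM in RP replicates 1 to 4, and 251, 249.6 and 220.3 CPM with Max addback, against 86.3, 83.1 and 96.0 CPM with empty vector. Reads summed over the gene cannot reveal the loss of an exon, and so the RPM level is no check of that genotype. The animal that RPM replicate 1 is named for is also named in tumour labels that give the genotype as Rb/p53 mutant. Where a call or an overlap of a member described below turns on this line, the result without the line is also given. Ddx3y, a Y-linked gene, read 0, 0 and 0 CPM with Max addback, against 177, 165 and 157 CPM with empty vector; the addback and empty vector cells thus differ in Y-linked RNA as well as in the vector, and effects of Max and of this difference cannot be told apart. Among the lines, RPM replicate 3 and RP replicate 2 read no Ddx3y. Addback replicate 3 stood apart from the other 2. The lines expressed C cell markers (Calca at 832 to 12562 CPM in RPM and 916 to 2379 CPM in RP lines). Of the fibroblast markers Dcn, Thy1 and Pdgfrb were listed, summing to 22.1 to 188 CPM in RPM and 33.8 to 162 CPM in RP lines; Pdgfra, Lum and Fap were not analysed. Epithelial markers summed to 175 to 3531 CPM in RPM and 1822 to 3160 CPM in RP lines. In the addback experiment they summed to 467 to 569 CPM with Max addback and 60.2 to 67.3 CPM with empty vector (5 of 6 higher and 1 lower), and 7 of 8 C cell markers were also higher with addback. The fibroblast sum was 16.7 to 20.2 CPM with addback and 27.3 to 40.5 CPM with empty vector (2 of 3 higher and 1 lower). These marker counts are limma calls at an adjusted p under 0.05, where 27.7% of all genes were called higher with addback and 25.5% lower. What these marker levels contribute to the matrix gene results was not tested.

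Promoter sequences are shown first because MAX-containing dimers bind the E-box CACGTG, and at lower affinity its variant CACGCG. RefSeq promoters (GRCm38.p6, 250 bases before to 50 after a start) were matched by symbol for 57 of the 88 genes, 62 promoters in all. The E-box, which reads the same on both strands, was in 1 of these 57 genes (1.75%), against 11.5% of the 11348 listed genes with a promoter and 8.09% of all genes in the promoter table. The variant CACGCG, searched on both strands as CACGCG and CGCGTG, was in 5 of the 57 genes (8.77%), against 19.7% of listed genes and 10.5% of all. It stood in the promoters of Adamtsl4, Adamtsl5, Col25a1, Col5a3 and Timp3. With Max addback Col5a3 rose (log2 change 1.93), Adamtsl4, Adamtsl5 and Timp3 fell, and Col25a1 was not analysed. Lamb1, with neither motif in its window, also fell (log2 change -2.76). Whether a motif goes with a direction of change was not tested. A match of letters is a description and not a binding site. Adamts17 is shown as the promoter with the E-box (chr7:66839485-66839784, plus strand; the motif starts 173 bases before the start), Timp3 as a promoter with the variant in a gene that fell strongly with Max addback (chr10:86300162-86300461, plus strand), and Nid1 as the promoter of a gene with one of the largest rises there, with neither motif in this window (chr13:13437352-13437651, plus strand). Capitals mark the motifs.
Adamts17: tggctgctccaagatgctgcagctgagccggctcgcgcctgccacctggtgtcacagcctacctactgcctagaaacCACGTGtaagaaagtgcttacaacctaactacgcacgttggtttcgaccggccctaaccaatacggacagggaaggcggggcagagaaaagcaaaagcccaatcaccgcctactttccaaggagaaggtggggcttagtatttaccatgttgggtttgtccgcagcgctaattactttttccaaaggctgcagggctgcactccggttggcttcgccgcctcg
Timp3: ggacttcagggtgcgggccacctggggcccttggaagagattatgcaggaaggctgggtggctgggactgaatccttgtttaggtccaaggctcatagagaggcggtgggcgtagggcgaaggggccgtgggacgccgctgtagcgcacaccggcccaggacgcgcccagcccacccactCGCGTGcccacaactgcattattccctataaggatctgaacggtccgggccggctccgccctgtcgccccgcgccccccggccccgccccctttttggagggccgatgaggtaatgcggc
Nid1: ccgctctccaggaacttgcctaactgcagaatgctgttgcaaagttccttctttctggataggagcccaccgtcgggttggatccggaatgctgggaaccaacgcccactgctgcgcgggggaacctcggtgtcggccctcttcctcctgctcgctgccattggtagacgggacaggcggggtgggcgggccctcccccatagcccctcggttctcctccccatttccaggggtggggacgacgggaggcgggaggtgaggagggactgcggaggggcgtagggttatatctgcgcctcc
Adamts17, the protease gene with the E-box, read 30.5, 12.5, 22.8 and 13.6 CPM in RPM replicates 1 to 4, against 26.3, 17.1, 9.88 and 17.3 CPM in RP replicates 1 to 4. It read 14, 13.7 and 8.87 CPM with Max addback, against 8.58, 10.1 and 7.79 CPM with empty vector. The groups overlapped in both experiments, and limma called neither comparison, with log2 changes of 0.15 (SE 0.37, adjusted p = 0.871) in the lines and 0.41 (SE 0.18, adjusted p = 0.0839) with addback.

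Levels between genes were compared as RPKM, which divides by gene length. Many members were sparse: 37 of 79 members in the lines averaged under 1 RPKM (46.8%, against 14.1% of all listed genes), and 7 reached 10 RPKM. Itgb1, the beta chain shared by most collagen and laminin receptors, stood highest at 88.2 ± 17.4 RPKM (SD, n = 8 lines). Itga3, a laminin receptor alpha chain that pairs with it, followed at 26.2 ± 7.22 RPKM, with the ceramide transfer gene Col4a3bp at 22.1 ± 5.08 RPKM; the ranges of these 2 overlapped. Timp2, Mmp15, Nid1 and Agrn came next at 13.3 to 15.6 RPKM, within each other's spread. In the addback experiment Itgb1 was again highest at 116.5 ± 8.87 RPKM (SD, n = 6), and Lamc1, Itgb1bp1, Col4a3bp, Itga3 and Mmp15 lay between 14.8 and 19.2 RPKM.

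The RPM and RP lines were compared to ask what differs between tumour lines with and without Max. No matrix or integrin gene passed the test: limma on log2(CPM + 1), with Benjamini-Hochberg adjusted p under 0.05 over all genes, called 0 of 79 higher and 0 of 79 lower, where it called 0.209% of all genes higher and 0.125% lower. At an unadjusted p under 0.05, 4 members lay higher (5.06%) and 13 lower (16.5%), against 7.56% and 8.34% of all genes. The groups did not overlap for 6 members, all lower in RPM lines (7.59%, against 4.39% of all genes), and for no member higher (against 4.97%). The median log2 change of the members was -0.12, beside -0.01 over all genes. edgeR's quasi-likelihood test on recovered reads called none either (0.00696% of all genes higher and 0.0139% lower); DESeq2 called 1 higher, Col4a4, and 6 lower, namely Col18a1, Lamb1, Agrn, Itgbl1, Col11a2 and Col4a2 (background 2.51% and 2.2%). The authors' deposited table called 3 higher and 9 lower, against 1.72% and 2.47% of its genes. Without RPM replicate 1, limma called 0 higher and 4 lower, among them Col18a1, Timp2 and Itga3, against 0.536% and 1.28% of all genes; the groups then did not overlap for 3 members higher and 12 lower (3.80% and 15.2%, against 9.87% and 10.9% of all genes). The 3 were Adamts9, Col4a4 and Lama3, and the 12 included Itga3, Timp2, Adamts18, Col1a1, Itgb1bp2 and Lamc3, which overlapped with all 4 lines. Only the variation among these lines enters such p-values. Without RP replicate 2, limma called Nid1 alone, higher, against 0.0418% of all genes.

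The 6 members whose groups did not overlap included Col18a1, Lamb1 and Agrn, which encode basement membrane proteins. Col18a1 (ENSMUSG00000001435.15; chr10:77052178-77166548), a basement membrane collagen that carries heparan sulphate, read 6.0, 2.37, 2.01 and 0.495 CPM in RPM replicates 1 to 4, against 16.8, 29.1, 66.1 and 25.2 CPM in RP replicates 1 to 4. Every RPM line lay below every RP line, with RPM replicate 4 near the value of 3 reads. The log2 change was -3.28 (SE 0.54, adjusted p = 0.0550), the smallest p of the set, with p = 0.0286 in an exact permutation test (two-sided), which is as low as 4 against 4 libraries can reach. The authors' deposited table calls it lower, with a log2 fold change of -3.65. Without RPM replicate 1, limma's log2 change was -3.65 (adjusted p = 0.0216).

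Laminin chains differed in how far the genotypes stood apart. Lamb1, the beta 1 chain of the widespread laminins, read 2.55, 1.25, 2.84 and 1.61 CPM in RPM replicates 1 to 4, against 7.94, 7.33, 25.7 and 5.65 CPM in RP replicates 1 to 4. No RPM line reached an RP line, and RP replicate 3 was the highest; the log2 change was -1.84 (SE 0.45, adjusted p = 0.145). The most abundant chains by RPKM gave no such separation: Lamc1, the gamma 1 chain, read 62.0, 98.9, 69.9 and 70.5 CPM in RPM replicates 1 to 4, against 60.0, 55.9, 101 and 88.7 CPM in RP replicates 1 to 4, with a log2 change of 0.00 (SE 0.23, adjusted p = 0.999). Lama5, the alpha 5 chain, ranged over 10.3 to 74.9 CPM in RPM and 32.1 to 80.0 CPM in RP lines. Lama3, the alpha chain of an anchoring laminin of epithelia, was low in both, at 1.91 to 2.25 CPM in RPM and 0.481 to 2.19 CPM in RP lines. Without RPM replicate 1 the Lama3 groups did not overlap, though narrowly, with RPM replicates 2 to 4 at 2.24, 2.25 and 2.23 CPM. Over the 9 laminin chains, 6 log2 changes lay below 0 (66.7%, against 50.5% of all genes) and the median was -0.36. No laminin chain was called by limma.

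Agrn, the heparan sulphate proteoglycan agrin that binds laminin, read 89.7, 61.7, 73.3 and 64.0 CPM in RPM replicates 1 to 4, against 120.2, 116, 276 and 191 CPM in RP replicates 1 to 4. The groups did not overlap, and the log2 change was -1.19 (SE 0.28, adjusted p = 0.140). Nid1 (ENSMUSG00000005397.8; chr13:13437551-13512269), the nidogen that links laminin to type IV collagen, read 131, 91.4, 94.7 and 205 CPM in RPM replicates 1 to 4, against 3.37, 291, 1.22 and 8.36 CPM in RP replicates 1 to 4. All 4 RPM lines and RP replicate 2 were high, whereas the other 3 RP lines were at 8.36 CPM or less. The log2 change was 3.29 (SE 1.33, adjusted p = 0.293), and 4.79 (adjusted p = 0.0323) without RP replicate 2. The type IV chains Col4a1 and Col4a2, transcribed from one shared promoter region, were low in RPM lines (0.125 to 2.30 and 0 to 1.02 CPM) and split among the RP lines, with 24.2 and 26.8 CPM in RP replicate 2 and 9.42 and 8.60 CPM in RP replicate 4.

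**Figure D1:**
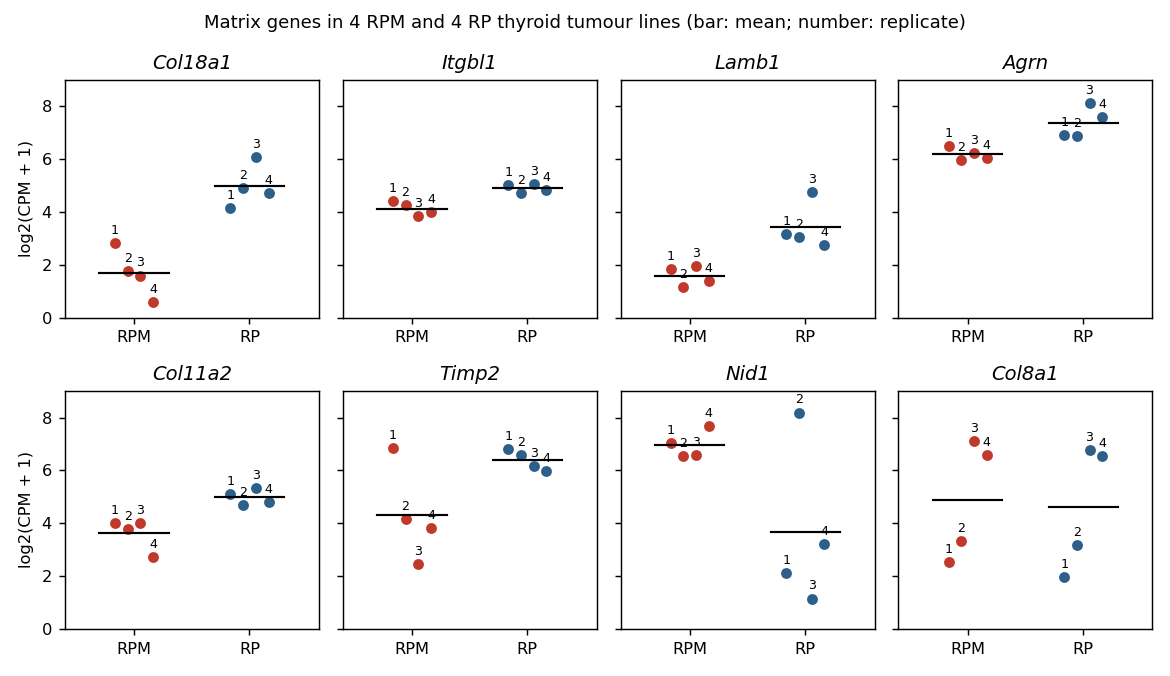
Levels, as log2(CPM + 1), of 8 members (Itgbl1 matched by name only) in each of 4 RPM and 4 RP thyroid tumour lines. Points are single lines numbered by replicate and bars are means. Col18a1, Itgbl1, Lamb1, Agrn and Col11a2 do not overlap between the groups, Timp2 is high in RPM replicate 1, Nid1 is high in RP replicate 2, and Col8a1 is high in replicates 3 and 4 of both groups.

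Among fibril-forming collagens, Col11a2, a chain of the type XI collagen that starts fibrils, read 15.1, 12.8, 15.1 and 5.57 CPM in RPM replicates 1 to 4, against 33.1, 24.7, 39.1 and 26.7 CPM in RP replicates 1 to 4. All RPM lines lay below all RP lines (log2 change -1.34, SE 0.32, adjusted p = 0.145). Its partner chain Col11a1 read 0.383, 145, 97.6 and 92.5 CPM in RPM replicates 1 to 4, against 0, 39.4, 98.0 and 63.5 CPM in RP replicates 1 to 4: 1 line of each genotype was at or near 0, the other 6 were high, and the groups overlapped. The log2 change was 0.71 (SE 1.84, adjusted p = 0.875). It was 2.29 (adjusted p = 0.401) without RPM replicate 1 and -0.785 (adjusted p = 0.845) without RP replicate 1. Col1a1, the main chain of type I collagen, was at 0.124 to 2.55 CPM in RPM and 1.44 to 10.0 CPM in RP lines, with a log2 change of -1.61 (SE 0.52, adjusted p = 0.223). Without RPM replicate 1 its groups did not overlap, with RPM replicates 2 to 4 at 0.748, 0.473 and 0.124 CPM. Col7a1, which makes the anchoring fibrils under epithelia, read 16.1, 25.6, 199 and 109 CPM in RPM replicates 1 to 4, against 180.5, 152, 61.9 and 72.4 CPM in RP replicates 1 to 4. Its high and low lines were spread over both genotypes (log2 change -0.92 (SE 0.77, adjusted p = 0.580); without RPM replicate 1, -0.35, adjusted p = 0.808). Col8a1, a short-chain network collagen, read 4.72, 8.98, 138 and 94.1 CPM in RPM replicates 1 to 4, against 2.89, 8.06, 108 and 92.9 CPM in RP replicates 1 to 4. Replicates 3 and 4 were high and replicates 1 and 2 low in each genotype. Col16a1 and Col20a1, the most abundant of the other collagens, spanned 3.83 to 35.5 CPM and 5.98 to 20.2 CPM in RPM lines, against 4.09 to 26.0 CPM and 5.41 to 14.1 CPM in RP lines.

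No integrin chain separated the genotypes without overlap. Itgb1 read 401, 435, 322 and 403 CPM in RPM replicates 1 to 4, against 348, 243, 289 and 437 CPM in RP replicates 1 to 4. The groups overlapped, and the log2 change was 0.27 (SE 0.19, adjusted p = 0.514). Itga3 read 191, 104, 107 and 102 CPM in RPM replicates 1 to 4, against 156, 198, 189.9 and 150.4 CPM in RP replicates 1 to 4; RPM replicate 1 lay among the RP lines and the other 3 below them, giving -0.50 (SE 0.22, adjusted p = 0.308), and -0.72 (adjusted p = 0.0464) without that line. Itga11, a collagen receptor chain that pairs with Itgb1, read 76.6, 80.8, 19.8 and 7.31 CPM in RPM replicates 1 to 4, against 4.33, 49.7, 11.3 and 9.66 CPM in RP replicates 1 to 4. RPM replicates 1 and 2 and RP replicate 2 were high, and the groups overlapped. The log2 change was 1.24 (SE 0.89, adjusted p = 0.517), and 0.82 (adjusted p = 0.649) without RPM replicate 1. Itgb5, which pairs with the alpha v chain, was also high in 1 RP line, replicate 2, at 30.5 CPM (the rest of the group read 1.56 to 4.59 CPM), while RPM lines ranged over 2.42 to 66.8 CPM.

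Proteases and inhibitors showed single high or low lines. Timp2, an inhibitor that also takes part in pro-Mmp2 activation, read 114, 17.1, 4.5 and 13.0 CPM in RPM replicates 1 to 4, against 111, 94.8, 70.7 and 62.5 CPM in RP replicates 1 to 4. RPM replicate 1 was above the highest RP line while the other 3 RPM lines lay far below, and the log2 change was -2.06 (SE 0.79, adjusted p = 0.276), against -2.90 (adjusted p = 0.0231) without that line. Timp3, the inhibitor that binds to the matrix, read 0, 103, 1.18 and 7.56 CPM in RPM replicates 1 to 4, against 0.241, 25.5, 1.95 and 0.471 CPM in RP replicates 1 to 4. It was high in replicate 2 of each genotype, with a log2 change of 0.94 (SE 1.5, adjusted p = 0.786), which was -0.38 without RPM replicate 2. The authors' deposited table calls Timp3 and Adamts9 higher in RPM lines, and Timp2 and Adamts18 lower. Mmp15 and Mmp24, membrane-anchored metalloproteinases, ranged over 20.2 to 122 CPM and 17.1 to 61.0 CPM in RPM lines, and 78.5 to 91.7 CPM and 23.6 to 52.6 CPM in RP lines. Adamts18, a secreted metalloproteinase, read 30.0, 11.6, 9.94 and 2.85 CPM in RPM replicates 1 to 4, against 29.4, 19.2, 77.2 and 46.5 CPM in RP replicates 1 to 4, and RPM replicate 1 lay within the RP range and the other 3 below it (log2 change -1.78, SE 0.64, adjusted p = 0.254). Without RPM replicate 1 the log2 change was -2.26 (adjusted p = 0.0935). Adamts10 and Adamts15, the most abundant of their family, overlapped between the groups, as did Loxl2, a lysyl oxidase (26.6 to 86.4 CPM in RPM and 13.4 to 68.5 CPM in RP lines). Of the genes matched by name only, Itgbl1 read 20.2, 17.9, 13.3 and 14.9 CPM in RPM replicates 1 to 4, against 31.3, 25, 32.1 and 27.2 CPM in RP replicates 1 to 4. Its groups did not overlap, with a log2 change of -0.78 (SE 0.19, adjusted p = 0.154).

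Lines of the same genotype differed widely in these genes. The range over the 4 RPM lines had a median of 1.54 over the members, on the log2(CPM + 1) scale, against 0.75 over all listed genes; over the 4 RP lines it was 1.35, against 0.66. A range over 3 was seen for 16 of 79 members in RPM lines (20.3%, against 6.0% of all genes) and for 12 in RP lines (15.2%, against 4.00%). Over the 3 RPM lines other than replicate 1 the median was 1.16, against 0.55 over all genes, and 7 members had a range over 3 (8.86%, against 3.15%). Over all 8 lines the widest ranges were those of Col11a1 (7.19), Nid1 (7.04) and Timp3 (6.70), and the narrowest those of Itgae (0.48) and Itgb3bp (0.61). The members were also less abundant, with a median of 1.14 RPKM against 7.29 RPKM for all genes, and the part of level in this spread was not tested. In cultured lines, a gene read by few cells and one read weakly by many cannot be told apart.

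**Figure D2:**
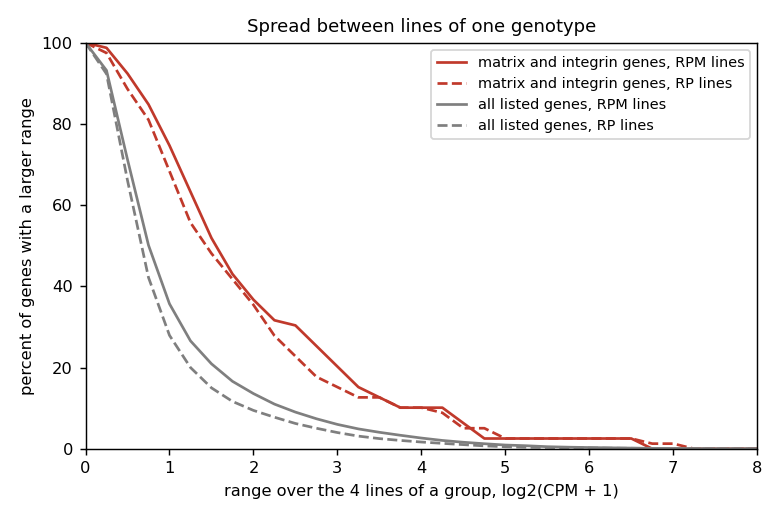
Percent of genes (vertical axis) whose range over the 4 lines of a genotype, in log2(CPM + 1), is larger than the value on the horizontal axis, for the 79 matrix and integrin genes and for all 14360 listed genes. At a range of 3, the members' curves are at 20.3% (RPM lines) and 15.2% (RP lines), and those of all genes at 6.0% and 4.00%.

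The addback experiment asked what returning Max does in RPM cells. Of 78 members, limma called 29 higher with Max addback (37.2%, against 27.7% of all genes) and 26 lower (33.3%, against 25.5%). Calls with an absolute log2 change of at least 1 numbered 21 higher (26.9%, against 10.5% of all genes) and 17 lower (21.8%, against 5.04%). The median log2 change was 0.10 and the median absolute change 0.87, beside -0.0019 and 0.34 over all genes. Groups did not overlap for 33 members higher (42.3%, against 31.7% of all genes) and 27 lower (34.6%, against 30.2%). Without addback replicate 3, limma called 33 higher and 26 lower (42.3% and 33.3%, against 32.5% and 31.7% of all genes). Exact permutation tests cannot go below p = 0.1 with 3 against 3 libraries. By their library names all 6 libraries are of 1 line, and nothing in the labels says that they were separate cultures, so these p-values may measure technical spread only.

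Among fibrillar collagens, 3 of 5 rose, 1 fell and 1 (Col5a1) was not called, where 27.7% of all genes rose and 25.5% fell. Col11a1 (ENSMUSG00000027966.20; chr3:114030540-114220718) read 119, 127 and 89.2 CPM with Max addback, against 2.14, 3.69 and 3.21 CPM with empty vector. Every addback library lay far above every empty vector library, and the log2 change was 4.81 (SE 0.18, adjusted p = 2.26e-08). Col11a2, its partner chain, also rose, by 1.44 (SE 0.14, adjusted p = 1.55e-05) on the log2 scale, and Col5a3, a type V chain, rose by 1.93. Col1a1 fell: it read 0.381, 0.747 and 0.771 CPM with Max addback, against 4.72, 3.84 and 6.41 CPM with empty vector, a log2 change of -1.86 (SE 0.20, adjusted p = 3.45e-05).

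Network and basement membrane collagens also went both ways. Col7a1 read 107, 93.7 and 101 CPM with Max addback, against 4.86, 7.53 and 6.87 CPM with empty vector. The groups stood far apart (log2 change 3.79, SE 0.14, adjusted p = 2.64e-08). Col8a1 read 18.1, 19.3 and 13.9 CPM with Max addback, against 0.429, 0.995 and 1.37 CPM with empty vector, a log2 change of 3.24 (SE 0.21, adjusted p = 9.47e-07). Col18a1, the gene that separated the lines, was low throughout and rose with addback: it read 3.43, 2.99 and 2.83 CPM with Max addback, against 0.286, 0.142 and 0.305 CPM with empty vector, with a log2 change of 1.71 (SE 0.16, adjusted p = 1.41e-05). Its empty vector level lay below the value of 3 reads in each library. Type IV chains did not move as one. Col4a4 read 11.7, 10.5 and 9.12 CPM with Max addback, against 28, 27.6 and 29.5 CPM with empty vector and fell (log2 change -1.37, SE 0.12, adjusted p = 7.62e-06), whereas Col4a5 was at 53.3 to 56.2 CPM with addback and 39.3 to 54.7 CPM with empty vector and was not called. Of the 7 members of this class 3 rose and 2 fell, where 27.7% of all genes rose and 25.5% fell. Among the 6 other collagens 1 rose and 1 fell, beside the same shares of all genes. Col16a1, a fibril-associated collagen, fell to 25.3 to 29.1 CPM with addback, against 107 to 125 CPM with empty vector (log2 change -2.06, SE 0.09, adjusted p = 9.02e-08).

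Of 8 laminin chains, 5 fell, 2 rose and 1 was not called, where 25.5% of all genes fell and 27.7% rose. Lamb1 (ENSMUSG00000002900.16; chr12:31265234-31329644) read 1.53, 1.74 and 1.54 CPM with Max addback, against 17.9, 14.5 and 17.7 CPM with empty vector. Addback libraries lay far below the others, with a log2 change of -2.76 (SE 0.14, adjusted p = 1.95e-07). Lamc1, the most abundant chain by RPKM, read 79.7, 83.4 and 61.7 CPM with Max addback, against 247, 232 and 249.6 CPM with empty vector, and the log2 change was -1.70 (SE 0.11, adjusted p = 1e-06). Lamb3 and Lama3, chains of an anchoring laminin of epithelia, fell by 2.14 (SE 0.21, adjusted p = 1.7e-05) and 1.46 (SE 0.17, adjusted p = 7.33e-05) on the log2 scale. Lama5 fell to 49.7 to 67.9 CPM with addback, against 90.6 to 106 CPM with empty vector.

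The binders of laminin were divided. Nid1 read 32.0, 27.3 and 24.5 CPM with Max addback, against 0, 0 and 0.153 CPM with empty vector. The empty vector libraries held 1 read of Nid1 in all and the addback libraries 662, a ratio of 576 with an exact 95% counting interval of 103 to 22767; the fitted log2 change was 4.78 (SE 0.16, adjusted p = 1.1e-08). Nid2, the second nidogen, went the other way, at 14.7, 16.4 and 11.1 CPM with Max addback, against 30.7, 32.4 and 34.8 CPM with empty vector (log2 change -1.17, SE 0.14, adjusted p = 8.23e-05). Hspg2, perlecan, rose by 1.04 and Agrn fell by 0.83 on the log2 scale. All 4 genes of this class were called, 2 in each direction, where 27.7% of all genes rose and 25.5% fell.

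Among integrins, 7 of 15 chains rose and 3 fell, where 27.7% of all genes rose and 25.5% fell. Itga11 read 30.5, 25.9 and 20.7 CPM with Max addback, against 1.86, 1.28 and 1.83 CPM with empty vector. The groups did not overlap and the log2 change was 3.32 (SE 0.17, adjusted p = 1.99e-07). Itga3 rose by 0.56, Itga7, a laminin receptor chain, by 1.52, and Itgb7, a chain best known from leukocytes, by 1.85 on the log2 scale. Itga6, the other main laminin receptor alpha chain, fell to 8.10 to 11.4 CPM with addback, against 41.4 to 43.5 CPM with empty vector (log2 change -2.0, SE 0.13, adjusted p = 9.73e-07). Itgb1 was not called: it read 474, 541 and 484 CPM with Max addback, against 435, 463 and 455 CPM with empty vector, and its adjusted p of 0.163 became 0.0143 (log2 change 0.17) without addback replicate 3. Itgb5 read 33.8, 38.0 and 41.4 CPM with Max addback, against 34.3, 38.5 and 41.5 CPM with empty vector, with a log2 change of -0.01 (SE 0.11, adjusted p = 0.919).

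Membrane-anchored metalloproteinases changed in opposite directions. Mmp14, the best-known activator of pro-Mmp2, read 16.8, 14.7 and 16.2 CPM with Max addback, against 0.715, 1.28 and 2.29 CPM with empty vector. Addback libraries were all higher, with a log2 change of 2.85 (SE 0.22, adjusted p = 3.41e-06). Mmp16 read 6.86, 7.22 and 2.18 CPM with Max addback, against 0, 0 and 0 CPM with empty vector; addback replicate 3 was the lowest of its group. Against 3 reads over the empty vector group, Mmp16 was at least 37.4-fold higher with addback. Mmp24 rose by 1.44 and Mmp15 by 0.78 on the log2 scale. Mmp17, which is held by a lipid anchor, fell: it read 10.3, 12.3 and 13.2 CPM with Max addback, against 51.9, 51.7 and 62.1 CPM with empty vector, a log2 change of -2.12 (SE 0.12, adjusted p = 4.39e-07). Among the secreted enzymes, Mmp28 rose by 2.26 on the log2 scale. Mmp13, a collagenase, read 4.45, 6.85 and 3.73 CPM with Max addback, against 33.7, 26.0 and 46.0 CPM with empty vector and fell (log2 change -2.59, SE 0.23, adjusted p = 9.16e-06), and Mmp11 fell by 1.31. Of 9 metalloproteinases 5 rose, 3 fell and 1 was not called, where 27.7% of all genes rose and 25.5% fell.

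The inhibitors split as well. Timp3 (ENSMUSG00000020044.13; chr10:86300372-86349506), whose promoter is printed above, read 0.508, 0.374 and 0.257 CPM with Max addback, against 19.3, 17.5 and 18.2 CPM with empty vector. It was near the value of 3 reads in every addback library and well above it with empty vector, and the log2 change was -3.81 (SE 0.14, adjusted p = 2.8e-08). Timp2 read 28.6, 30.4 and 28.7 CPM with Max addback, against 11.3, 13.1 and 10.5 CPM with empty vector, a rise of 1.26 (SE 0.11, adjusted p = 9.96e-06) on the log2 scale. Timp4 was at 0.890 to 1.12 CPM with addback and 1.22 to 1.43 CPM with empty vector and was not called. In the Adamts family 5 of 14 rose and 6 fell, where 27.7% of all genes rose and 25.5% fell. Adamts18 read 20.3, 20.8 and 15.8 CPM with Max addback, against 1.86, 1.99 and 2.60 CPM with empty vector and rose (log2 change 2.66, SE 0.16, adjusted p = 5.47e-07), and Adamts9 rose to 40.2 to 62.0 CPM with addback, against 23.3 to 27.6 CPM with empty vector. Adamtsl5 fell by 1.94, Adamts15 by 0.83 and Adamts10, a gene linked to microfibrils, by 0.52. Loxl2, which cross-links type IV collagen, fell by 0.41 (SE 0.10, adjusted p = 0.00680) on the log2 scale, and Loxl3 was not called. Of the 5 genes matched by name only, Itgb1bp1 fell by 0.63 and the others were not called.

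**Figure D3:**
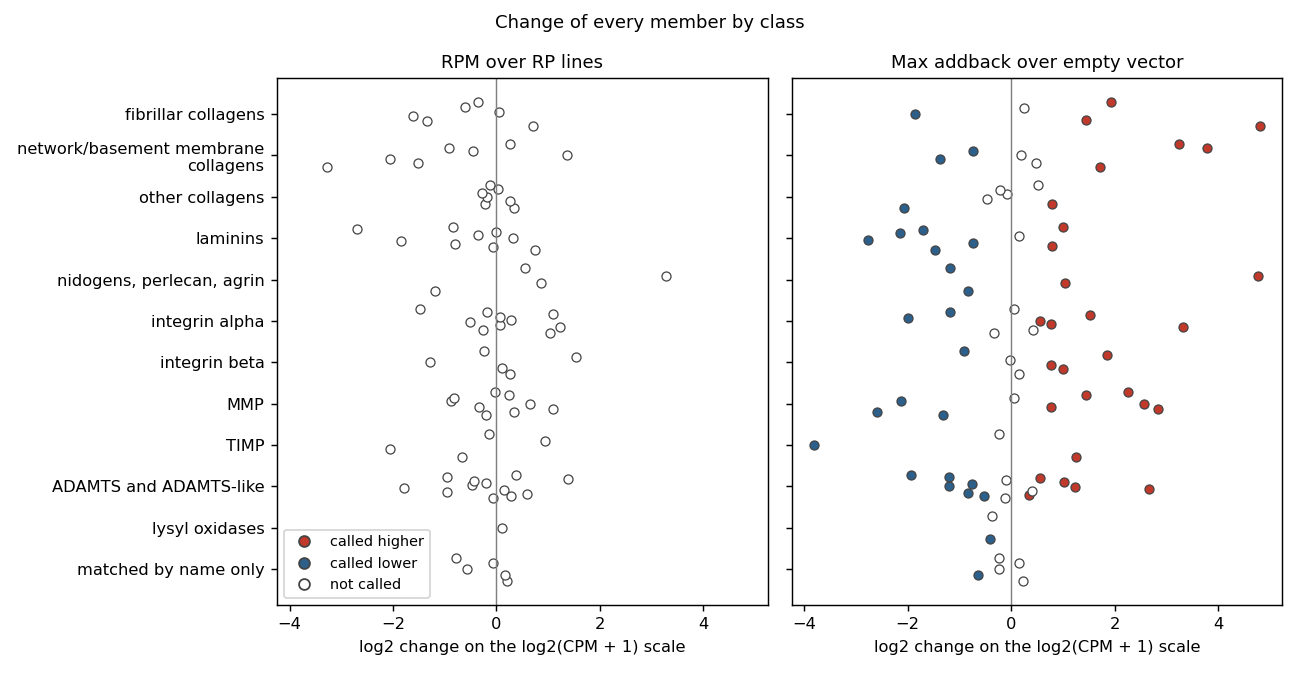
Log2 change of every member by class, on the log2(CPM + 1) scale, in RPM over RP lines (left, 79 genes) and in Max addback over empty vector (right, 78 genes); filled points passed limma at an adjusted p under 0.05. No member is filled on the left, while 29 are filled as higher and 26 as lower on the right.

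The untransduced line that the library names point to as the parent, RPM replicate 2, gives a further level for each gene, though its table was normalised separately and it is 1 library. Nid1 was at 91.4 CPM in the untransduced line, 32.0, 27.3 and 24.5 CPM with Max addback and 0, 0 and 0.153 CPM with empty vector. The addback cells lay nearer to the parent than the empty vector cells did. The same order held for Itga11, at 80.8 CPM in the untransduced line, 30.5, 25.9 and 20.7 CPM with Max addback and 1.86, 1.28 and 1.83 CPM with empty vector, and for Lamb1, at 1.25 CPM in the untransduced line, 1.53, 1.74 and 1.54 CPM with Max addback and 17.9, 14.5 and 17.7 CPM with empty vector. For Itga6 and Lama3 the empty vector cells were nearer. Itga6 was at 44.6 CPM in the untransduced line, 11.4, 10.5 and 8.10 CPM with Max addback and 42.6, 43.5 and 41.4 CPM with empty vector. Timp3 differed from the parent in both, at 103 CPM in the untransduced line, 0.508, 0.374 and 0.257 CPM with Max addback and 19.3, 17.5 and 18.2 CPM with empty vector. Col4a5 did too, in the other direction, at 3.99 CPM in the untransduced line, 56.2, 53.3 and 53.5 CPM with Max addback and 39.3, 54.7 and 49.2 CPM with empty vector. Of the 69 shared members, empty vector cells differed from the parent by more than 2 log2 units in 11 (15.9%, against 3.43% of all shared genes) and addback cells in 4 (5.80%, against 0.791%). Addback was nearer to the parent than empty vector in 43 members (62.3%, against 59.2% of all shared genes), a share close to that of all genes. Levels of RNA from 1 untransduced library carry no test. Ddx3y was at 125 CPM in the untransduced line and at 157 to 177 CPM with empty vector, and no library with Max addback had a read of it, so the descent of the addback cells from that line rests on the library names alone.

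**Figure D4:**
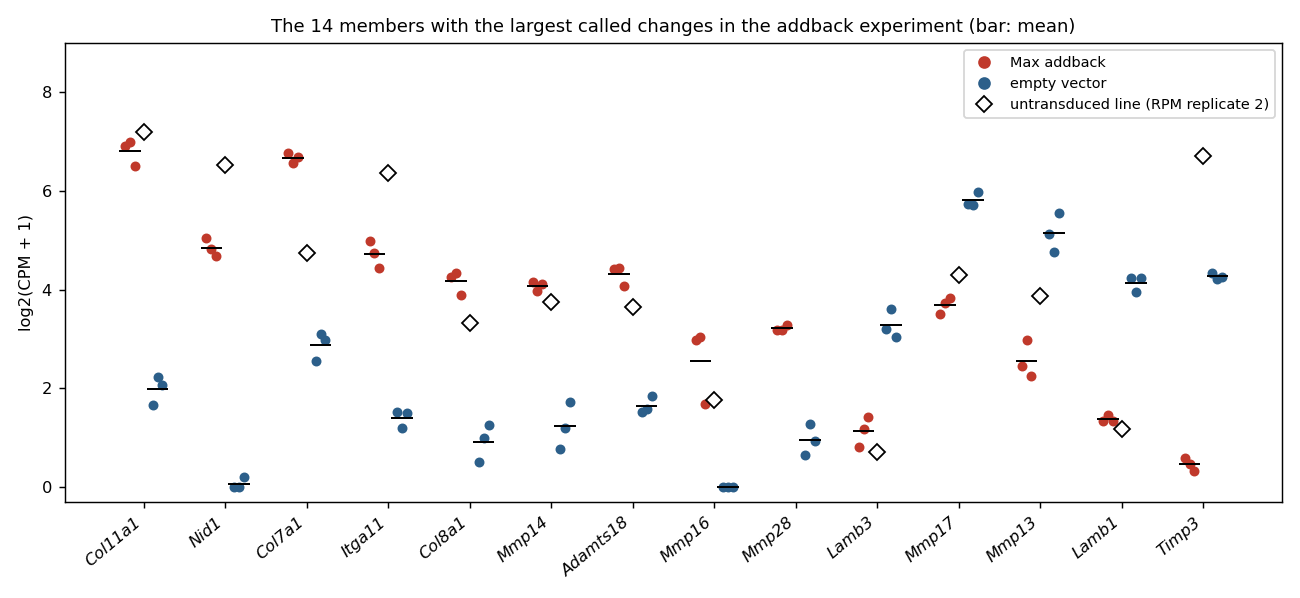
Levels, as log2(CPM + 1), of the 14 members with the largest called changes in the 3 Max addback and 3 empty vector libraries; points are libraries, bars are means, and diamonds are the single untransduced library of the line they are named for (none for Mmp28). Nid1 and Itga11 of the untransduced line lie above both groups, and its Timp3 lies above the empty vector libraries.

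Whether the change was the same in both settings was tested as the log2 change of RPM over RP lines minus that of empty vector over Max addback. A value near 0 means equal changes. By their library names the 6 transduced libraries are of 1 line, that of RPM replicate 2, so the settings are not independent. Those libraries may be technical repeats, and the fit gave each of them more weight than any line. Empty vector and addback cells also differ in Y-linked RNA. The p-values below thus do not cover variation among transduced lines, and a difference cannot be assigned to Max. Over the 69 members in both tables, 19 differed (27.5%), 8 above 0 and 11 below 0, against 15% of all shared genes (8.99% above and 5.99% below). For Nid1 the difference was 8.07 (SE 1.27, adjusted p = 0.00104): its log2 change was 3.29 in RPM over RP lines and -4.78 in empty vector over addback. For Lamb1 it was -4.60 (SE 0.47, adjusted p = 4.01e-05), with -1.84 in the lines and 2.76 in the transduced line. Agrn, Col1a1, Mmp17 and Adamts15 likewise had negative values in the lines and positive ones in the transduced line. Itga11, Mmp14, Mmp16 and Col11a1 had positive values in the lines and negative ones in the transduced line. None of these line values passed its own test. The members named so far were drawn from the 19 that differed, a choice that favours opposite signs. Over all 69 members, RPM over RP lines and empty vector over addback had the same sign for 37. Col18a1 had the same sign in both, -3.28 in the lines and -1.71 in the transduced line, and its difference was -1.57 (SE 0.52, adjusted p = 0.0556). Timp2 and Col11a2 also had negative values in both; their differences had adjusted p = 0.465 and 0.885 by the same limma test, which does not show the changes to be equal. Col4a4 had positive values in both, 1.36 and 1.37. A shared sign does not mean that addback reached the RP level. In tables normalised separately, Col18a1 read 2.83 to 3.43 CPM with addback and 16.8 to 66.1 CPM in RP lines. Timp2 read 28.6 to 30.4 and 62.5 to 111 CPM, and Col11a2 16.9 to 20.2 and 24.7 to 39.1 CPM, in that order. Col4a4 read 9.12 to 11.7 CPM with addback and 0.366 to 0.842 CPM in RP lines. The count of members that differed was 11 of 69 without library weights (against 8.83% of all shared genes). It was 25 without RPM replicate 1 (against 17.9%), 9 without RPM replicate 3 (against 9.79%), 12 without RPM replicate 4 (against 9.01%), 11 without addback replicate 1 (against 11.3%) and 11 without addback replicate 2 (against 10.2%).

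**Figure D5:**
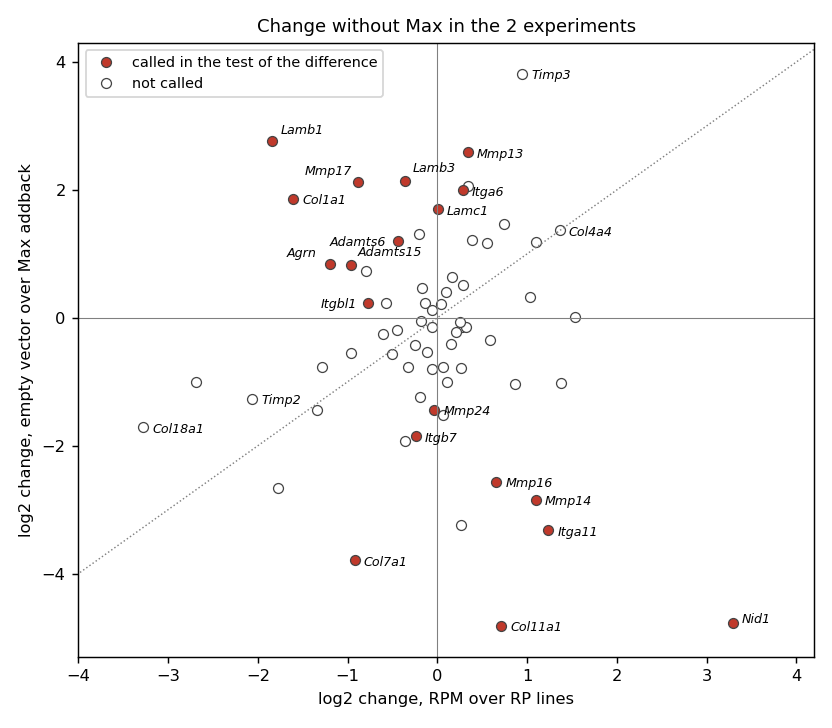
Log2 change of RPM over RP lines (horizontal) and of empty vector over Max addback (vertical) for the 69 members in both tables, on the log2(CPM + 1) scale; filled points passed the test of the difference and the dotted line marks equal changes. Nid1, Col11a1, Itga11 and Mmp14 lie in the lower right and Lamb1, Col1a1 and Mmp17 in the upper left, while Col18a1 and Timp2 lie in the lower left.

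Genes that work with the members were counted from lists of matrix and adhesion genes. In the lines 0 of the 14 collagen synthesis enzymes, 19 matrix glycoproteins and proteoglycans, 22 focal adhesion proteins, 13 other proteases and inhibitors and 11 other matrix receptors tested were called by limma. It called 0.209% of all genes higher there and 0.125% lower. With Max addback, 3 of 13 collagen synthesis enzymes rose and 8 fell. Pcolce2, which enhances procollagen processing, read 7.12, 8.72 and 8.74 CPM with Max addback, against 37.6, 44.3 and 42.3 CPM with empty vector (log2 change -2.21, SE 0.12, adjusted p = 2.93e-07), and the lysyl hydroxylase Plod2 fell by 1.39. Of 22 glycoproteins and proteoglycans 10 rose and 9 fell. Fn1, fibronectin, the ligand of several integrins, read 0.254, 0.125 and 0.514 CPM with Max addback, against 37.7, 37.8 and 39.2 CPM with empty vector; it was near 0 with addback, and the log2 change was -4.93 (SE 0.15, adjusted p = 7.71e-09). Efemp2, an elastic fibre protein, rose by 4.34. Of 22 focal adhesion proteins 8 rose and 6 fell; Fermt1, a kindlin that activates integrins, read 14.4, 12 and 14.8 CPM with Max addback, against 0, 0 and 0 CPM with empty vector, and Src rose by 2.66. Of 14 other proteases and inhibitors 3 rose and 4 fell, among them Serpine2 (higher by 1.51) and Adam19 (lower by 1.5). Of 10 other matrix receptors 6 rose and 3 fell, with Sdc1, syndecan 1, lower by 1.18 and Rpsa lower by 0.79. The addback counts stand beside 27.7% of all genes higher and 25.5% lower. The lists were not tested against other genes, and several of the addback shares lie near those of all genes.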

How the data were processed

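Per the submitters' processing notes, bcl2fastq 1.8.4, TopHat2 2.1.0, HTSeq 0.6.1 and edgeR were used with build mm10; no source used here says if counting used the strand, and reads from antisense neighbours may then be mixed. The authors deposited, per the file headers, a signal per gene in CPM after TMM scaling, RPKM values, log2 fold changes, p-values with FDR, and a score of -1, 0 or 1 for their calls, in 2 tables normalised separately. The CPM steps came out as whole reads (tolerance 0.01 reads) in 100% of values. Depth was 6738614 to 8498396 reads; floors and counting intervals cover counting error only.

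Members were matched to GENCODE vM21 (GRCm38) for coordinates. limma 3.58.1 with a trend was fitted to log2(CPM + 1) of all listed genes of each table, with a pseudocount of 1, so changes of low genes are understated. edgeR 4.0.16 and DESeq2 1.42.0 on the recovered reads were alternatives. The difference between the comparisons used limma with group weights on 13528 shared genes. Single values had exact two-sided permutation tests. The code was tested on simulated data. The members, lists and tests were chosen with earlier results of these data known. Named were, per comparison, the 10 members with the smallest p and the 14 largest called changes at a mean of at least 1 CPM, and the 2 most abundant of each class, 37 in all; others, such as Col4a1, Col4a2, Col4a4, Col4a5, Col5a3, Itga6, Itga7, Itgb7, Nid2, Hspg2, Mmp11, Adamts9, Adamts17 and Adamtsl5, were chosen after their values were seen. No libraries were merged: the within-group chi-square over genes, per degree of freedom, was 20.7 to 77.9 between lines, 1.84 to 15.5 among addback and 1.76 to 1.90 among empty vector libraries. Tumour libraries were not analysed here. The values of 1 member are not reported here.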

Additional observations from a re-analysis of the deposited data

Results flagged for a closer look

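By Dixon's gap test on CPM, 1 line's distance to the nearest of the other 3 of its group was large relative to the group's whole range in 14 of 68 groups of the members named (20.6%). The same limit was passed in 8.17% of the groups of all listed genes, and with normal values chance gives about 1 in 20; these members were named partly by p-value, size of change and abundance. RPM replicate 2 was the high line for Adamts15 (31.7 CPM, the others 4.38 to 5.49), Itgb1bp1 (52.4, the others 26.3 to 26.9), Loxl2 (86.4, the others 26.6 to 31.8), Mmp13 (13.6, the others 6.0 to 6.86) and Timp3 (103, the others 0 to 7.56). RPM replicate 1 was high for Itga3 (191 CPM, the others 102 to 107) and Timp2 (114, the others 4.5 to 17.1), and low for Lama3 (1.91, the others 2.23 to 2.25, a difference of 15 reads against 18 to 19). RP replicate 2 was high for Itga11 (49.7 CPM, the others 4.33 to 11.3), Itgb5 (30.5, the others 1.56 to 4.59), Nid1 (291, the others 1.22 to 8.36) and Timp3 (25.5, the others 0.241 to 1.95). RP replicate 3 was high for Lamb1 (25.7 CPM, the others 5.65 to 7.94), and RP replicate 1 was low for Mmp24 (23.6, the others 50.4 to 52.6).

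For 16 of the 37 named members, the change of RPM over RP lines differed from that of empty vector over addback. The same test called 15% of all shared genes. Not all named members were in both tables. They were named partly by p-value and size of change in these same comparisons, a choice that favours such calls. The test was limma's test of the difference, with Benjamini-Hochberg adjusted p under 0.05. The transduced libraries are of 1 line by their names, that of RPM replicate 2, and may be technical repeats. Max cannot be told apart there from the Y-linked difference. On the log2 scale, as the first change minus the second, the difference was above 0 for Nid1 (8.07), Col11a1 (5.53), Itga11 (4.56), Mmp14 (3.95), Mmp16 (3.22), Col7a1 (2.87) and Mmp24 (1.41). It was below 0 for Lamb1 (-4.60), Col1a1 (-3.47), Mmp17 (-3.0), Lamb3 (-2.50), Mmp13 (-2.25), Agrn (-2.03), Adamts15 (-1.79), Lamc1 (-1.69) and Itgbl1 (-1.01).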

How the results depend on the processing

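Counts of members called in the lines were 0 higher and 0 lower, and became 1 higher and 6 lower under DESeq2; leaving out each line in turn gave 0 to 1 higher and 0 to 4 lower (4 without RPM replicate 1, 1 higher without RP replicate 2). In the addback experiment, 29 higher and 26 lower became 28 to 33 and 25 to 27 with each library left out, and 21 and 17 with a minimum log2 change of 1, a limit chosen after seeing the data. The 19 members that differed between the comparisons became 11 without weights and 9 to 25 with each library left out. A replicate block gave 27 members that differed; the numbers do not pair the libraries, whose same-numbered correlations were 0.0114 to 0.406 in the lines and 0.0202 to 0.0813 in the addback experiment, and not every library correlated best with its own number. It changed no count of calls within either comparison by over 1.5 times. Of the recomputed changes of the 37 named members in the lines, 523 kept direction and call, 10 became called and 27 turned sign; in the addback experiment these were 511, 4 and 3. Signs turned only for members that were not called. With each line left out these ranged over -0.245 to 0.656 (Adamts10), -0.785 to 2.29 (Col11a1), -0.0803 to 0.913 (Col16a1), -0.0598 to 0.511 (Col20a1), -0.618 to 1.06 (Col8a1), -0.0766 to 0.246 (Itgb1bp1), -0.135 to 0.149 (Lamc1), -0.342 to 0.417 (Loxl2), -0.612 to 0.236 (Mmp15), -0.308 to 0.374 (Mmp24) and -0.381 to 1.92 (Timp3), and with each addback library left out over -0.0865 to 0.0598 (Itgb5). Lamc1 was also -0.023 (DESeq2), -0.0209 (edgeR) and -0.000838 (median-of-ratios scaling), Mmp24 0.0402 (DESeq2) and 0.0421 (edgeR), and Itgb5 0.0639 under plain library size scaling. The cause was not tested. With 3 reads worth up to 0.458 CPM, members near 1 CPM cannot show small changes.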
